A study of Homo sapiens with 40 samples.

Results

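The genes described are 43 interferon-stimulated genes, a list of antiviral effectors, sensors and regulators induced by type I interferon, measured in U87 cells, an established human glioblastoma line. The list gives genes by symbol and uses no measured value, and every probe set carrying 1 of those symbols was taken. Of the 43 genes, 42 had at least 1 such probe set (75 probe sets in all, among 40914 of 1 symbol), and 40 were bright enough to be tested, out of 17220 genes tested and 19774 measured. A probe set is a group of oligonucleotides on the microarray that reads 1 transcript region. A gene was represented by its brightest probe set on average and was tested where it reached a log2 signal of 4.273 on at least 2 arrays. STAT2 had no probe set carrying its symbol alone and was not analysed here, and BST2 and CMPK2 were too dim to test.

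The cells carried a lentiviral vector and were compared in 7 lines, each left untreated (basal) or given tunicamycin at 0.5 µg/ml for 16 hours. Tunicamycin blocks N-glycosylation and so causes endoplasmic reticulum stress. The empty vector (EV) line was the control, and the others overexpressed wild-type IRE1 (WT), 1 of 4 variants named by their amino acid change (S769F, P336L, A414T and the truncating Q780*) or a dominant negative form (IRE1-DN). There were 3 arrays for each line and condition, and 2 for IRE1-DN (replicates 2 and 3), giving 40 arrays in 14 groups. IRE1 is a sensor of unfolded proteins in the endoplasmic reticulum with a kinase and an RNase domain. It splices XBP1 mRNA and degrades other RNAs. All lines kept the IRE1 of the parental cells, so each variant was measured on top of it, driven by the CMV promoter of a vector that also carried puromycin resistance and copGFP. For IRE1-DN the labels name the same vector as for the others, whereas the study's methods do not describe its vector. The labels give clone numbers to the 4 variant lines and none to EV, WT or IRE1-DN, while the methods describe puromycin-selected populations. The arrays of a group are called biological replicates with no mention of separate cultures, and the tests below therefore speak only of the variation among these arrays, which may be technical.

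Type I interferons bind a receptor on the cell surface, and JAK kinases then activate a complex of STAT proteins with IRF9 that enters the nucleus. There it binds the interferon-stimulated response element (ISRE) of its target genes. Interferon gamma acts mainly through STAT dimers at a second motif, the gamma-activated site (GAS). The induced proteins sense viral RNA, block its translation, restrict viral entry or dampen the signal, and many glioblastoma lines retain the pathway.

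Promoter sequences of 33 of the 43 genes were found in the RefSeq table (assembly GRCh38.p14), as the 250 bases before the start of each gene. An ISRE core, GAAANNGAA on either strand (TTCNNTTTC when read on the other), was present in 21 of the 33 promoters (63.6%), against 1927 of 27303 promoters in the table (7.06%). A GAS, TTCNNNGAA, which reads the same on both strands, was present in 11 of the 33 (33.3%), against 1850 of all (6.78%). These matches are a description of the letters and not evidence of binding. Printed here are 6 promoters of genes on which the results below turn, chosen after their values were seen: IFIT1, IFIT3, IFIH1 and DDX60, which were higher with tunicamycin, IFI44, which was lower, and SLFN11, which differed between lines. Sequences run 5′ to 3′ on the gene's strand and end at the base before the start, and capitals mark ISRE core matches.
IFIT1: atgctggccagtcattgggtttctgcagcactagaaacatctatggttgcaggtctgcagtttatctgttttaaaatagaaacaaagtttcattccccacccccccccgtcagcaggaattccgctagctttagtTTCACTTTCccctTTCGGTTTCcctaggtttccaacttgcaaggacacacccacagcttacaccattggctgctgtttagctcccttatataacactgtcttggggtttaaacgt
IFIT3: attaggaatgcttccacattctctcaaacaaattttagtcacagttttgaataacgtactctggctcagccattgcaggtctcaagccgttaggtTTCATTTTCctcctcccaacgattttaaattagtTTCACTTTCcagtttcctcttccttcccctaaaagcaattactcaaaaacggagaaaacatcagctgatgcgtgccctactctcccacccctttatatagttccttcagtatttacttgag
IFIH1: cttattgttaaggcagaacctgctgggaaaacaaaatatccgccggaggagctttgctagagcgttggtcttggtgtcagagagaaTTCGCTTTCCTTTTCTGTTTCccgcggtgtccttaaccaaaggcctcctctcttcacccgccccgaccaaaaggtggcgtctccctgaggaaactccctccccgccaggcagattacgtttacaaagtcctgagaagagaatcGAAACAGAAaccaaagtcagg
DDX60: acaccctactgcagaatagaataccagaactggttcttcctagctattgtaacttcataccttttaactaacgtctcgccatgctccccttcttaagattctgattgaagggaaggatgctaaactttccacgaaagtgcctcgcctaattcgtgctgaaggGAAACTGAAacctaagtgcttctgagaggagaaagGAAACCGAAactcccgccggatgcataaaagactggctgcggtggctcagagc
IFI44: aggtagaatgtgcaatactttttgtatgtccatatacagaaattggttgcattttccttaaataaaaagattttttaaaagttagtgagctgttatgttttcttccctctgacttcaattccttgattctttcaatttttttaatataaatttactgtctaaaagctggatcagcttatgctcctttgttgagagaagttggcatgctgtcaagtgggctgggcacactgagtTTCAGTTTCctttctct
SLFN11: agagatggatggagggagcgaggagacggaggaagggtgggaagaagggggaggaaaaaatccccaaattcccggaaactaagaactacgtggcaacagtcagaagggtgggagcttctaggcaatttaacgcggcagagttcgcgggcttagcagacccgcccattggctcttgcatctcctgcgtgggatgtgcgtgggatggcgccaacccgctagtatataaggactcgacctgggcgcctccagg
IFIT1 lies at chr10:89392373-89392622 on the plus strand, with cores starting 115 and 102 bases before the gene. Its neighbour IFIT3, at chr10:89327747-89327996 on the plus strand, has cores 155 and 121 bases before the start. The IFIH1 window, chr2:162318685-162318934 on the minus strand, holds 3 overlapping cores 164, 158 and 152 bases before the start and another at 21. DDX60, chr4:168318753-168319002 on the minus strand, has cores at 88 and 53 bases and 1 GAS. IFI44, chr1:78649539-78649788 on the plus strand, has a single core 17 bases before its start. It is read on the other strand, as are the cores of IFIT1 and IFIT3 and the 3 overlapping ones of IFIH1. The SLFN11 window, chr17:35373622-35373871 on the minus strand, holds no ISRE core and 1 GAS.

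Arrays of the same group correlated at 0.9762 or more across probe sets, and no 2 arrays held identical values. A check of the stress treatment used 14 textbook target genes of the unfolded protein response, such as HSPA5 and DDIT3, and all 14 were higher with tunicamycin in every line. The difference between the 3′ and 5′ control probe sets of ACTB, a sign of RNA integrity, ran from 1.07 to 2.32 log2 units. It was 1.07 to 1.08 in untreated IRE1-DN cells and 1.76 to 2.03 in untreated EV cells. Its part in the IRE1-DN results was not tested beyond a fit with this difference as a covariate, whose changed calls are named below for some genes only. The difference was also higher with tunicamycin, without overlap, in IRE1-DN (1.67 to 2.03 treated), S769F (1.20 to 1.66 untreated, 1.72 to 1.99 treated) and Q780* (1.43 to 1.53 and 1.75 to 1.87). Of the 11 U87 identity markers tested, CHI3L1 was lower than EV in all 6 lines and NES in all but Q780*, and the list's array means were 8.92 to 9.10 in untreated EV and 8.38 to 8.52 in untreated A414T cells. Among the 8 leukocyte markers tested none was called by limma against EV in untreated cells of any line (1 test, NKG7 in IRE1-DN, had an unadjusted p under 0.05). In treated cells 1 was called, CD3E in A414T (0.51), and 3 had an unadjusted p under 0.05, that test, AIF1 in P336L (0.54) and NKG7 in IRE1-DN (0.28). The array means of the leukocyte markers stayed between 4.38 and 4.81.

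Tunicamycin raised more of the interferon-stimulated genes than it lowered in every line. In EV cells 17 of the 40 tested genes were higher (42.5%) and 3 lower (7.5%), with a median log2 fold change of 0.43. Of all genes tested, 18.2% were higher and 12.7% lower in that comparison. A call here means a Benjamini-Hochberg adjusted p under 0.05 in limma over all 17220 genes, with no minimum fold. In WT cells 23 were higher and 2 lower (all genes 15.7% and 13.5%), and in S769F cells 19 and 5 (all genes 16.8% and 13.8%). Q780* cells had 21 higher and 5 lower (all genes 19.9% and 16%), and P336L cells 24 and 4 (all genes 11.9% and 14%). A414T cells had the highest count, 25 higher and 4 lower, against 15.8% and 17.3% of all genes, and the highest median, 1 log2 unit. IRE1-DN cells, with 2 arrays a group, had 11 higher and 3 lower (all genes 9.08% and 10.6%), or 9 calls in all without replicate 2 of the treated IRE1-DN cells. The medians of WT, S769F, Q780*, P336L and IRE1-DN were 0.66, 0.54, 0.54, 0.54 and 0.44. With the ACTB difference as a covariate the counts higher and lower were 10 and 1 in IRE1-DN cells, 20 and 4 for S769F, and 22 and 5 for Q780*, and its part in these results was not tested further. These are levels of RNA in bulk cells, so fewer cells expressing a gene and less RNA per cell cannot be told apart.

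**Figure D1:**
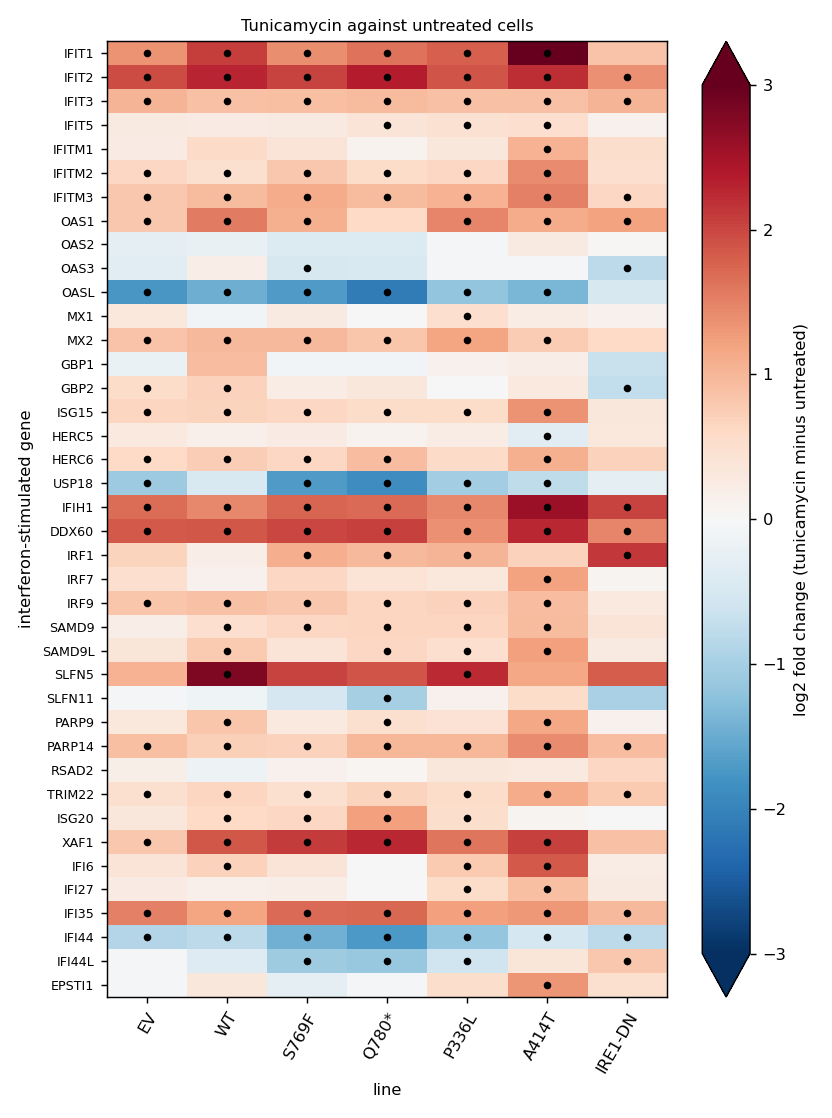
Log2 fold change with tunicamycin of the 40 tested genes (vertical axis) in the 7 lines (horizontal axis). Red is higher and blue lower with tunicamycin, colours are clipped at 3 log2 units, and black dots mark adjusted p under 0.05 in limma. IFIH1, IFIT2 and DDX60 are red with a dot in all 7 lines, and IFI44 is blue with a dot in all 7.

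Of the 40 tested genes, 31 were higher in at least 1 line and 8 were higher in all 7. The matching shares of all genes across lines were not computed, so these counts only describe the listed genes. These 8 were DDX60, IFI35, IFIH1, IFIT2, IFIT3, IFITM3, PARP14 and TRIM22. A further 7 were higher in 6 lines, namely IFIT1, IFITM2, IRF9, ISG15, MX2, OAS1 and XAF1. By the brightest probe set GBP1, OAS2 and RSAD2 were called in no line, with log2 fold changes from -0.67 to 0.92 (GBP1), -0.41 to 0.26 (OAS2) and -0.16 to 0.61 (RSAD2). Other GBP1 probe sets were lower in P336L (-0.50 and -0.63) and IRE1-DN (-0.81), and another, dim OAS2 probe set was higher in A414T (0.81), by limma. GBP2 and IFI44L were called higher in some lines and lower in others. The remaining genes were higher in 1 to 5 lines, among them HERC6 (0.57 to 1.06 over the lines, called in 5), SAMD9 (0.21 to 0.96, called in 5) and IRF7 (0.08 to 1.20, called in 1), or were lower with tunicamycin. HERC5 (-0.35 to 0.31 over the lines) and SLFN11 (-0.99 to 0.55) were called lower in 1 line each, and the others that fell are described below.

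The IFIT proteins bind viral RNA lacking host modifications and block its translation. IFIT1 in EV cells read 6.31, 6.53 and 6.89 untreated and 7.88, 7.99 and 7.93 with tunicamycin, a log2 fold change of 1.35 ± 0.361 (SE, adjusted p = 0.00391, limma). In A414T cells it read 4.13, 4.29 and 3.99 untreated and 7.91, 9.34 and 9.13 treated, a change of 4.66 ± 0.361 (adjusted p = 1.08e-11, limma). Of those untreated A414T arrays 2 lay below the brightness filter, so the size of the change is measured from a signal near background. It was 4.52 with all signals below the filter set to its level, a setting added after the data were seen. Treated and untreated arrays of IFIT1 did not overlap in any of the 7 lines, although in IRE1-DN (6.64 and 6.04 untreated, 7.52 and 6.87 treated) the change of 0.85 was not called (adjusted p = 0.207, limma). IFIT2, likewise near the filter before treatment, in EV cells read 4.19, 4.60 and 4.93 untreated and 6.24, 6.64 and 6.70 treated, a change of 1.95 ± 0.25 (adjusted p = 3e-07, limma). Across lines the change of IFIT2 ran from 1.38 in IRE1-DN to 2.36 in Q780* cells, and in no line did its arrays overlap. IFIT3 moved by nearly the same amount everywhere, 0.87 to 1.02, and IFIT5, which also binds RNA, was higher in 3 lines at 0.12 to 0.50 over all lines, and in 3 further lines by its second probe set alone (EV 0.68, WT 0.93 and S769F 0.60).

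The RNA-sensing helicases rose in all lines. IFIH1, also known as MDA5, detects long double-stranded RNA in the cytosol. It read 5.08, 4.76 and 5.49 in untreated EV cells and 6.36, 6.98 and 7.00 with tunicamycin, a log2 fold change of 1.67 ± 0.335 (adjusted p = 0.000202, limma). In A414T cells it went from 4.25, 4.92 and 4.32 to 6.03, 7.67 and 7.50, a change of 2.57 ± 0.335 (adjusted p = 2.6e-07, limma), the highest of the 7 lines, and the lowest was 1.43 in P336L. DDX60, a helicase linked to the same sensing route, read 5.27, 4.66 and 5.75 untreated and 6.91, 7.25 and 7.00 treated in EV cells (1.83 ± 0.35, adjusted p = 0.000116, limma). Its change ran from 1.37 in P336L to 2.25 in A414T cells. For both helicases the treated arrays lay above the untreated ones in every line. The DDX60 call in IRE1-DN, 1.47 ± 0.429 (adjusted p = 0.0126, limma), was lost without replicate 2 of the untreated cells (1.27, adjusted p = 0.12, limma) or of the treated cells (1.23, adjusted p = 0.135).

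XAF1, a pro-apoptotic partner of the inhibitor XIAP, was near the brightness filter in untreated cells and rose with tunicamycin in 6 lines. In Q780* cells it read 4.72, 4.32 and 4.28 untreated and 6.75, 6.53 and 6.80 treated, a log2 fold change of 2.25 ± 0.314 (adjusted p = 7.52e-07, limma). In EV cells the change was smaller, from 4.14, 4.05 and 4.05 to 4.46, 5.06 and 5.20 (0.82 ± 0.314, adjusted p = 0.045, limma), and with the mean of the XAF1 probe sets it was 0.38 (adjusted p = 0.149). With signals floored at the filter level it was 0.63 (adjusted p = 0.127, limma). That EV call was also lost on leaving out any 1 EV array but replicate 1 of the treated cells. The groups did not overlap in either line.

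Other effectors and regulators rose in a graded way. IFI35, a partner of the interferon-induced protein NMI, rose by 0.97 (IRE1-DN) to 1.72 (Q780*) log2 units. IFITM3, which restricts virus entry at endosomal membranes, rose by 0.63 to 1.50, and IFITM2 by 0.48 to 1.41, without a call in IRE1-DN. These IFITM genes were read only by probe sets that can also bind near-identical relatives, so reads of the family members cannot be fully told apart. PARP14, an ADP-ribosyltransferase, rose by 0.70 to 1.42 and TRIM22, a ubiquitin ligase, by 0.48 to 1.11. ISG15, the ubiquitin-like modifier, changed by 0.34 to 1.35 and was called in all lines but IRE1-DN. IRF9, the DNA-binding partner of the STAT complex, changed by 0.30 to 0.93 with the same exception. IRF1, another transcription factor of the pathway, changed by 0.19 to 2.13. Its largest value, in IRE1-DN (6.03 and 4.78 untreated, 7.55 and 7.53 treated, 2.13 ± 0.463, adjusted p = 0.000876, limma), was 1.51 (adjusted p = 0.0606) without replicate 3 of the untreated cells. IRF1 was also called higher in S769F (1.09), Q780* (0.98) and P336L, and each of these calls was lost without single arrays. That in P336L (1.03 ± 0.378, adjusted p = 0.0431, limma) was 0.47 (adjusted p = 0.419) without replicate 1 of the untreated cells, which read 5.29 against 7.05 and 6.87. The second IRF1 probe set was called higher by limma in all 7 lines, by 0.77 (EV) to 2.16 (IRE1-DN). The brightest SLFN5 probe set, of a kind that can bind other transcripts, varied widely between replicates, from 7.18 to 11.45 over all arrays, and was called in WT (2.80 ± 0.818, adjusted p = 0.00925) and P336L (2.23 ± 0.818, adjusted p = 0.0431, limma). Each limma call was lost without single replicates, down to 2.39 (adjusted p = 0.0588) in WT without replicate 2 of the untreated cells and 1.69 (adjusted p = 0.217) in P336L without replicate 3 of the treated cells. The next brightest SLFN5 probe set, above the filter on all 40 arrays, was called higher by limma in all 7 lines, by 0.64 (A414T) to 1.80 (Q780*) with an SE of 0.175 in the lines with 3 arrays a group, and the third by 0.80 to 1.86.

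A few of the genes fell. OASL, an OAS-like protein that strengthens RNA sensing without making oligoadenylate, was lower with tunicamycin in 6 lines. In EV cells it read 7.89, 7.86 and 7.99 untreated and 6.50, 6.01 and 6.03 treated, a log2 fold change of -1.74 ± 0.207 (adjusted p = 8.97e-08, limma). In Q780* cells it fell from 7.74, 7.78 and 7.95 to 5.55, 5.92 and 5.71 (-2.10 ± 0.207, adjusted p = 1.37e-09, limma). In IRE1-DN cells OASL was already low, 5.22 and 5.56 untreated and 4.89 and 4.94 treated, and the change of -0.48 was not called (adjusted p = 0.217, limma). USP18, which removes ISG15 and restrains the interferon receptor, was lower in 5 lines, by as much as 1.86 in Q780* cells (7.73, 7.25 and 7.77 to 5.66, 5.74 and 5.76, -1.86 ± 0.208, adjusted p = 1.49e-08, limma). In WT (-0.46, adjusted p = 0.098) and IRE1-DN (-0.28, adjusted p = 0.553, limma) it was not called. IFI44 was lower in all 7 lines, from -1.73 in Q780* to -0.52 in A414T cells. In EV cells IFI44 read 8.51, 8.43 and 8.56 untreated and 7.48, 7.63 and 7.71 treated (-0.89 ± 0.128, adjusted p = 1.73e-06, limma). OAS3, a synthase of 2′-5′ oligoadenylate, was lower in S769F and IRE1-DN, whereas OAS1, of the same enzyme family, was higher in all lines but Q780* (0.59 to 1.57 over all 7). With the ACTB difference as a covariate, 1 gene instead of 3 was called lower in IRE1-DN cells, and 4 instead of 5 in S769F. In IRE1-DN the call of IFI44, of OAS3 or of both was thus lost.

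**Figure D2:**
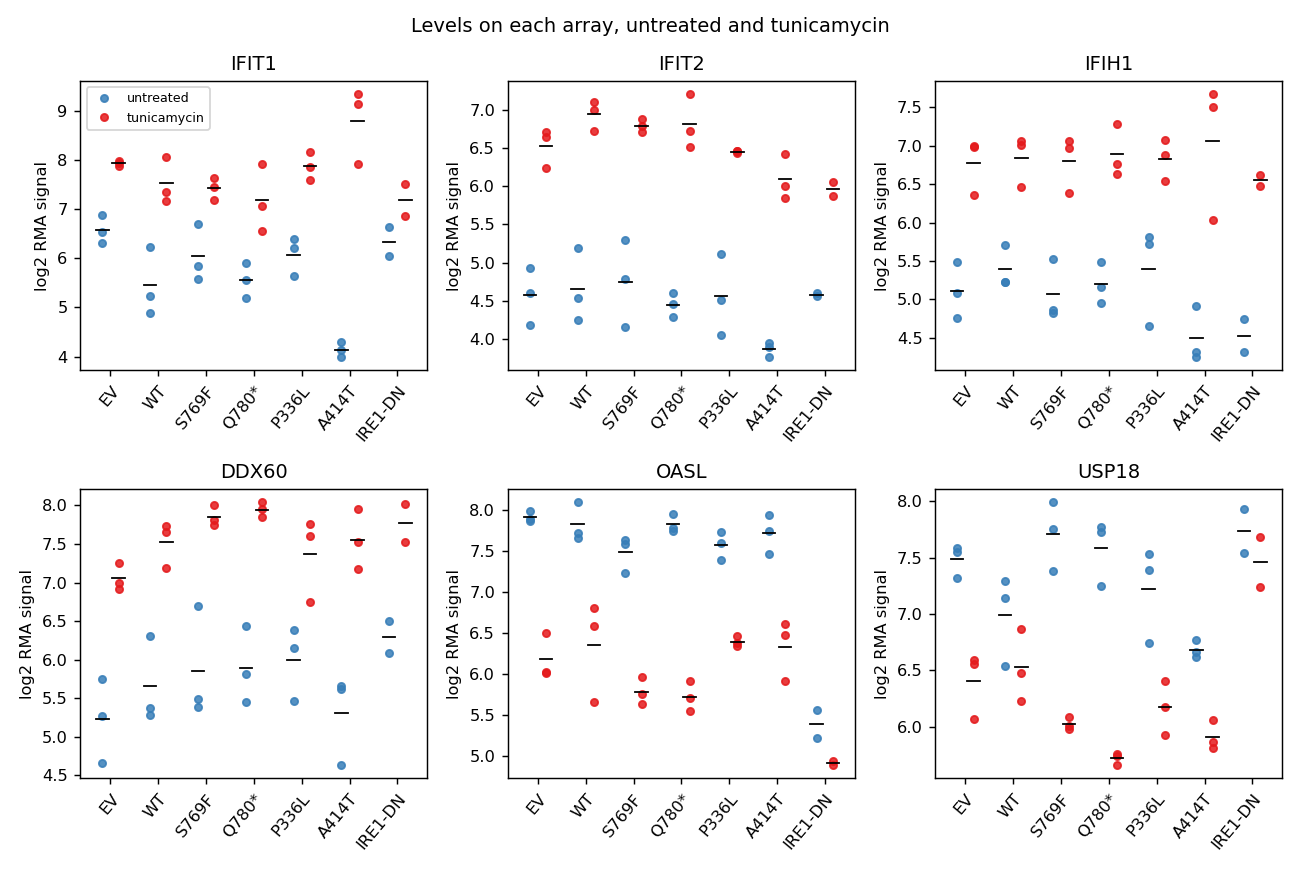
Log2 RMA signal (vertical axes) of IFIT1, IFIT2, IFIH1, DDX60, OASL and USP18 in the 7 lines (horizontal axes). Each dot is an array, blue untreated and red with tunicamycin, and the black bar is the group mean. The red dots of IFIT1, IFIT2, IFIH1 and DDX60 lie above the blue ones in every line, and those of OASL lie below them.

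Whether a line responded to tunicamycin differently from EV cells was tested as an interaction, the difference between the 2 responses. In A414T cells 9 of the 40 genes passed (22.5%), against 6.82% of all genes, 8 with a higher and 1 with a lower response. In Q780* cells 2 passed (all genes 0.912%) and in IRE1-DN 2 (all genes 5.19%). None passed in WT (all genes 0.499%), S769F (all genes 0.494%) or P336L (all genes 0.813%) with limma, where the counts at an unadjusted p under 0.05 were 4, 4 and 0. The EV arrays are shared by these comparisons.

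The A414T response of IFIT1 exceeded that of EV by 3.31 ± 0.511 log2 units (adjusted p = 5.71e-05, limma), or 3.16 with signals floored at the filter level. IFI6, an interferon-induced protein of the endoplasmic reticulum membrane, read 6.53, 7.17 and 6.52 in untreated and 7.99, 9.07 and 8.67 in treated A414T cells, against 7.64, 7.85 and 7.28 and then 7.82, 7.97 and 8.14 in EV. Its A414T response of 1.84 ± 0.189 (adjusted p = 3.26e-09) exceeded that of EV by 1.45 ± 0.267 (adjusted p = 0.000567, limma). Untreated A414T arrays thus lay below all untreated EV arrays for IFI6, and 2 of the 3 treated ones lay above every treated EV array. EPSTI1 read 4.55, 4.28 and 4.54 in untreated and 5.33, 6.17 and 5.86 in treated A414T cells, while in EV it read 5.07, 4.74 and 4.55 and then 4.47, 4.92 and 4.89. Its interaction was 1.36 ± 0.332 (adjusted p = 0.00906, limma). Smaller positive interactions were found for SAMD9L (0.88), PARP9 (0.85), IFITM2 (0.79), IFITM3 (0.68) and TRIM22 (0.63), and a negative one for HERC5 (-0.65), the main ligase for ISG15.

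For IFIT1, IFI6, SAMD9L, PARP9, TRIM22 and IFITM2, untreated A414T cells were also lower than EV, while EPSTI1 and IFITM3 were not called lower there. In treated cells IFI6 (0.60), EPSTI1 (1.03) and IFITM3 (0.52) were called higher than EV by limma. IFIT1 (0.86), SAMD9L (-0.13), PARP9 (0.01), IFITM2 (0.32) and TRIM22 (-0.27) were not called different from EV there. The number of A414T interactions was 15 without replicate 1 of the treated A414T cells, among them all 9, and 5 without replicate 2 or 3 of those cells or without replicate 1 of the treated EV cells. Replicate 1 of treated A414T cells was the lowest of its group over the 40 genes, 0.53 log2 units above the untreated EV mean on average, against 1.07 and 0.97 for replicates 2 and 3. Fitted on the EV and A414T arrays alone, 2 interactions passed.

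**Figure D3:**
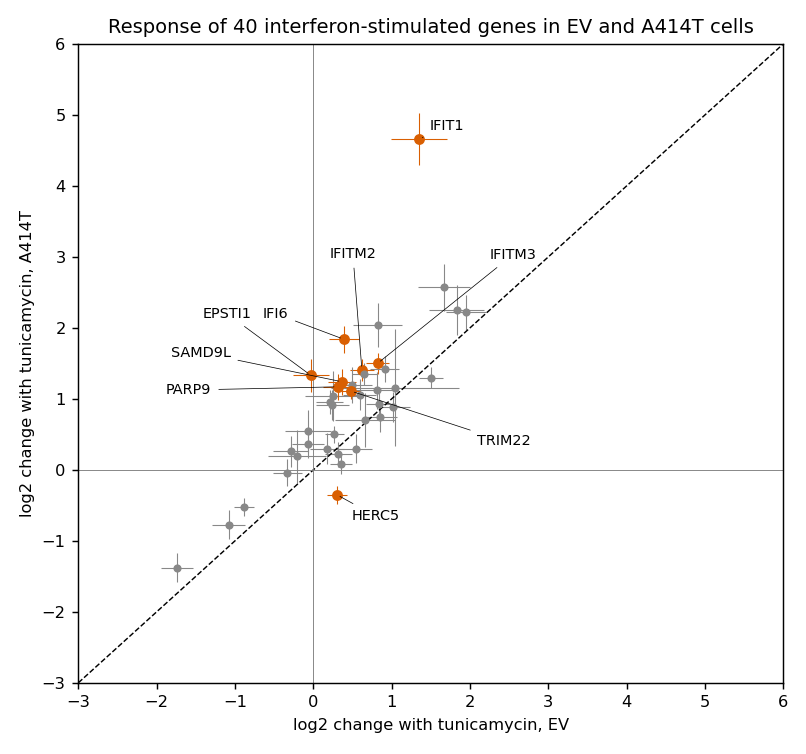
Log2 change with tunicamycin in EV cells (horizontal axis) and in A414T cells (vertical axis) for the 40 tested genes, with standard errors as bars and the line of equal response dashed. Orange points, with names, have an interaction with adjusted p under 0.05, and IFIT1 lies farthest above the dashed line at 1.35 in EV and 4.66 in A414T cells.

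In Q780* cells ISG20, an RNA exonuclease, responded more than in EV. It read 4.10, 3.81 and 4.12 untreated and 5.50, 5.08 and 5.17 treated in Q780* cells, and 3.97, 3.80 and 4.05 and then 4.35, 4.22 and 4.30 in EV, an interaction of 0.89 ± 0.2 (adjusted p = 0.0193, limma). The untreated arrays of both lines lay below the brightness filter and the treated EV arrays close to it, and with signals floored at that level the interaction was 0.94. ISG20 was tested only because of treated arrays, among them these of Q780*. Its calls with tunicamycin, its call in treated Q780* cells against EV and this interaction are therefore not independent of the filter. IFI44 fell further in Q780* cells, from 8.64, 8.92 and 8.96 to 6.99, 7.32 and 7.04, an interaction of -0.83 ± 0.181 (adjusted p = 0.0143, limma). Both lay close to the threshold, and neither passed without replicate 1 of the treated Q780* cells. In IRE1-DN cells the interaction was 1.26 ± 0.327 for OASL (adjusted p = 0.0187, limma) and -1.29 ± 0.331 for GBP2 (adjusted p = 0.0167, limma), a guanylate-binding GTPase. No interaction remained without replicate 2 of the untreated or of the treated IRE1-DN cells, and that of GBP2 was -0.87 (adjusted p = 0.152, limma) with the ACTB difference as a covariate.

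In untreated cells, few of the genes separated WT, S769F, Q780* or P336L cells from EV. WT cells had 4 higher (10%) and 1 lower (2.5%), where 4.89% and 3.68% of all genes were higher and lower. S769F cells had 3 higher and 0 lower (all genes 4.23% and 1.92%), and Q780* cells 3 higher and 0 lower (all genes 3.35% and 1.82%). P336L cells had 4 higher and 0 lower (all genes 6.48% and 2.56%). With limma at an unadjusted p under 0.05, the lower counts were 1, 1 and 4 in S769F, Q780* and P336L, and the unadjusted t-test of the study's methods gave 1, 1 and 3. Single arrays mattered: 5 genes passed in S769F without replicate 2 of its untreated cells, and 2 in P336L without replicate 2 or 3 of its untreated cells or replicate 1 of untreated EV. A414T cells had 5 higher and 9 lower (12.5% and 22.5%), where 10.4% and 8.17% of all genes were called. IRE1-DN cells had 10 higher and 6 lower (25% and 15%), where 15.2% and 12.4% of all genes were called. The medians of the 40 genes were 0.10 (WT), 0.13 (S769F), 0.13 (Q780*), 0.16 (P336L), -0.17 (A414T) and 0.10 (IRE1-DN). Every one of these comparisons used the same 3 EV arrays, so a call shared between lines is not an independent repeat.

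**Figure D4:**
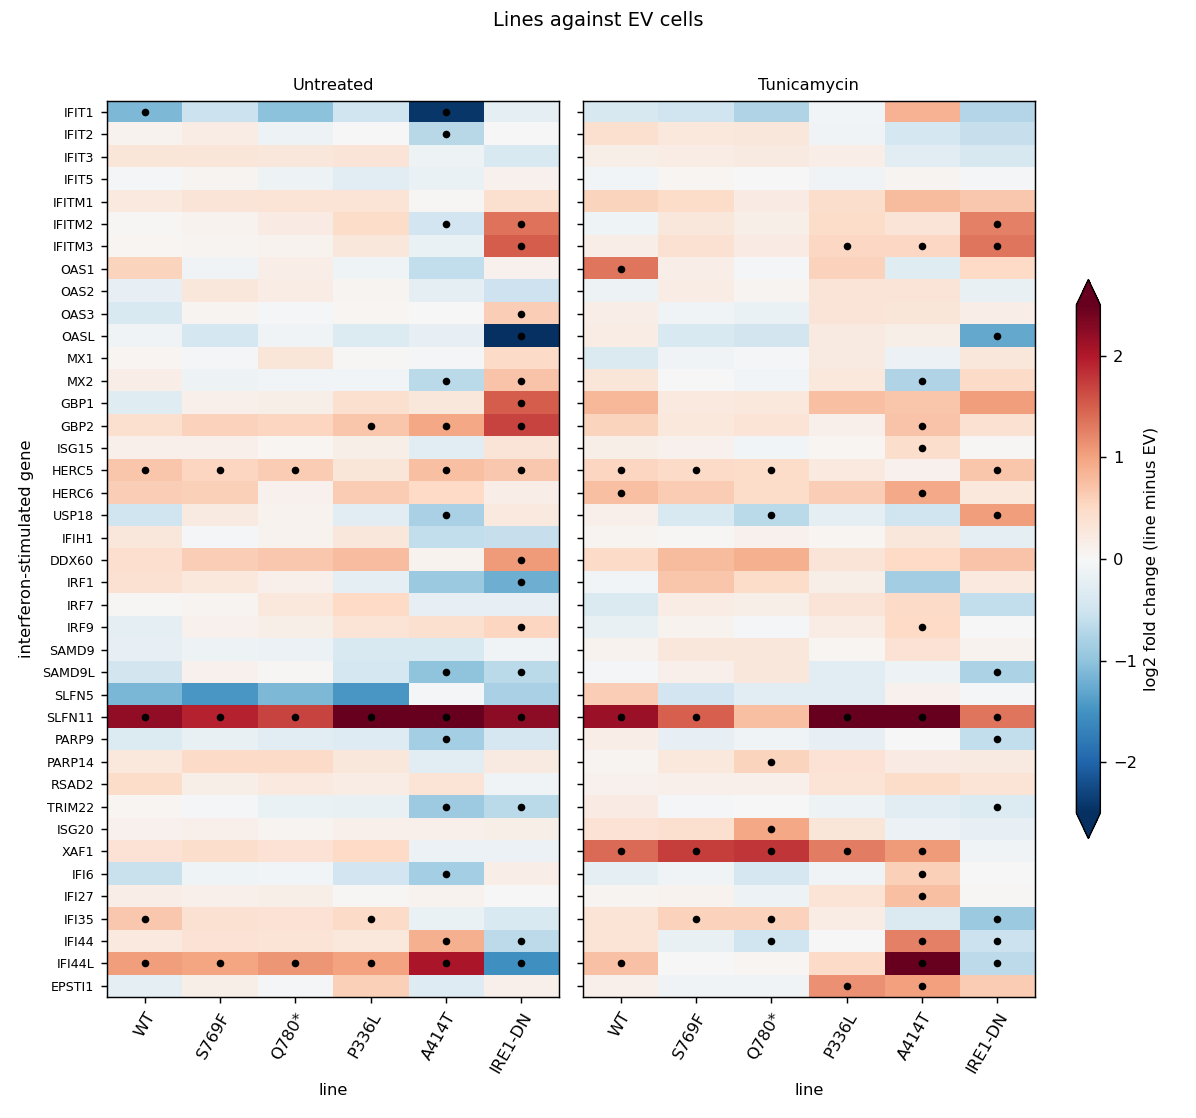
Log2 fold change against EV of the 40 tested genes (vertical axis) in the 6 other lines (horizontal axes), untreated on the left and with tunicamycin on the right. Red is higher and blue lower than EV, colours are clipped at 2.5 log2 units, and black dots mark adjusted p under 0.05 in limma. SLFN11 is red with a dot in all 6 lines when untreated.

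SLFN11, a Schlafen protein that stops stressed replication forks and sensitises cells to DNA damage, was higher than EV in all 6 lines. In EV cells it read 3.88, 4.20 and 3.73 untreated and 4.09, 3.73 and 3.77 treated, all under the brightness filter of 4.273, so the folds are against a signal near background. SLFN11 was tested only because of arrays of the other lines, where it was high. Its calls against EV and its place in the counts of genes higher than EV are therefore not independent of the filter. WT cells read 6.46, 6.09 and 5.91 (2.22 ± 0.293 above EV, adjusted p = 2.07e-06, limma). A414T cells were the highest at 7.37, 7.37 and 7.37 (3.44 ± 0.293, adjusted p = 1.55e-10, limma), with P336L next (6.35, 6.57 and 7.04). No untreated array of the other 6 lines overlapped the EV arrays for SLFN11, and A414T stood above the rest. With tunicamycin the A414T arrays read 8.17, 8.08 and 7.52 (4.06 ± 0.293 above EV, adjusted p = 4.33e-12, limma), and Q780* was the exception with 0.76 (adjusted p = 0.109, limma). The treated IRE1-DN value of 1.33 ± 0.327 (adjusted p = 0.00223, limma) was 0.88 (adjusted p = 0.136) without replicate 3.

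IFI44L, whose product lowers the interferon response, was higher in 5 lines and lower in IRE1-DN. EV cells read 6.98, 6.44 and 7.22 untreated. The values were 7.57, 7.93 and 8.26 in WT (1.04 ± 0.208, adjusted p = 0.000755) and 8.80, 8.93 and 9.06 in A414T cells (2.05 ± 0.208, adjusted p = 5.51e-09, limma). IRE1-DN arrays read 5.32 and 5.38 (-1.53 ± 0.233, adjusted p = 4.55e-06, limma). Thus A414T arrays lay above, and IRE1-DN arrays below, every EV array. S769F (0.98), Q780* (1.11) and P336L (1) lay near WT. With tunicamycin the excess was 2.49 ± 0.208 in A414T (8.88, 9.63 and 9.38 against 6.55, 6.86 and 7.01 in EV, adjusted p = 1.03e-10) and 0.73 in WT (adjusted p = 0.0165, limma), and -0.01 and 0.05 in S769F and Q780*. IFI44, a close relative of IFI44L, was higher than EV in A414T cells, untreated (9.43, 9.35 and 9.38 against 8.51, 8.43 and 8.56, 0.88 ± 0.128, adjusted p = 3.18e-06) and treated (1.26 ± 0.128, adjusted p = 5.31e-09, limma). In untreated IRE1-DN cells IFI44 was lower by -0.66 ± 0.143 (7.95 and 7.74, adjusted p = 0.000544, limma), but the mean of its 2 probe sets gave -0.19 (adjusted p = 0.378). HERC5 was higher in untreated WT (0.69), S769F (0.54), Q780* (0.64), A414T (0.75) and IRE1-DN (0.68) cells, and not called in P336L (0.31, adjusted p = 0.153, limma).

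**Figure D5:**
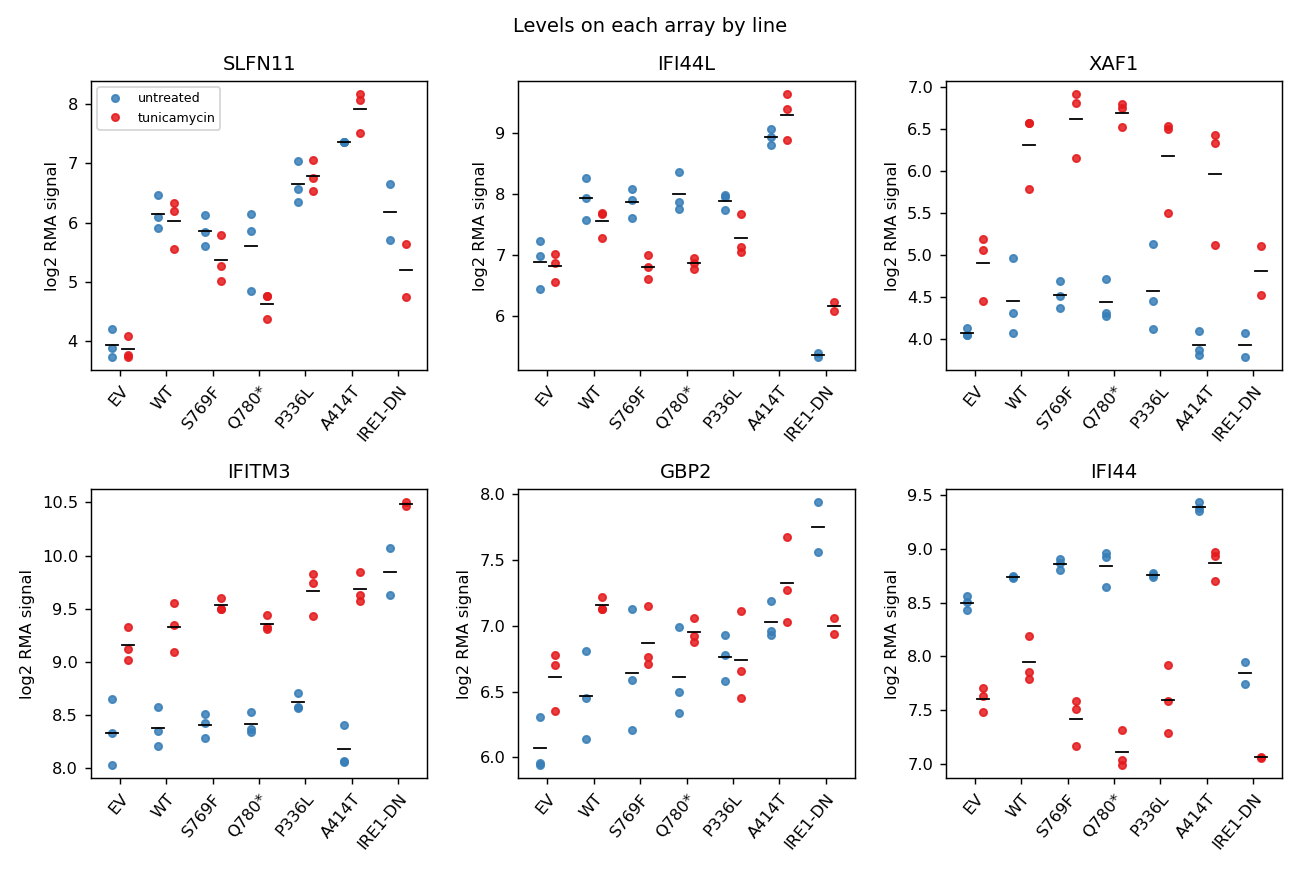
Log2 RMA signal (vertical axes) of SLFN11, IFI44L, XAF1, IFITM3, GBP2 and IFI44 in the 7 lines (horizontal axes). Each dot is an array, blue untreated and red with tunicamycin, and the black bar is the group mean. SLFN11 stays under 4.3 on the EV arrays and reaches 7.37 or more on the A414T arrays, and IFITM3 is at 9.63 or more on the IRE1-DN arrays.

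A group of genes was lower in untreated A414T cells than in EV. IFIT1 was lowest of all lines there (4.13, 4.29 and 3.99 against 6.31, 6.53 and 6.89), a log2 fold change of -2.44 ± 0.361 (adjusted p = 4.59e-06, limma), or -2.30 with signals floored at the filter level. SAMD9L, a regulator that halts translation in infected cells, read 6.51, 6.69 and 6.68 against 7.48, 7.53 and 7.90 (-1.01 ± 0.18, adjusted p = 7.46e-05, limma). USP18 read 6.62, 6.66 and 6.77 against 7.55, 7.32 and 7.59 (-0.81 ± 0.208, adjusted p = 0.0047, limma). For these 3 genes no A414T array reached an EV array. TRIM22 (-0.90), IFI6 (-0.85), PARP9 (-0.84), IFIT2 (-0.70), MX2 (-0.67) and IFITM2 (-0.47) were also lower, MX2 being a dynamin-like GTPase that blocks retroviruses. All 3 untreated A414T arrays of IFIT2 lay below the filter, and with floored signals its value was -0.33 (adjusted p = 0.434, limma). The IFITM2 call was lost without single arrays, for example -0.41 (adjusted p = 0.125, limma) without replicate 1 of EV. GBP2 was higher, 7.19, 6.96 and 6.93 against 5.96, 6.31 and 5.94 (0.96 ± 0.209, adjusted p = 0.000906, limma), but the mean of its 2 probe sets gave 0.40 (adjusted p = 0.14). In P336L cells GBP2 was 0.69 higher (6.58, 6.78 and 6.93, adjusted p = 0.0316, limma), and this limma call was lost without replicate 2 or 3 of P336L or replicate 1 or 3 of EV (0.61, adjusted p = 0.149, without P336L replicate 3).

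IFIT1 was lower in other lines too. Untreated WT cells read 5.24, 4.89 and 6.23, -1.12 ± 0.361 below EV (adjusted p = 0.0485, limma), and this call failed in most other settings, for example -0.84 (adjusted p = 0.284) without replicate 2 of WT and -0.97 (adjusted p = 0.191) without replicate 3 of EV. In Q780* cells IFIT1 read 5.20, 5.56 and 5.90 (-1.02 ± 0.361, adjusted p = 0.111, limma), and since replicate numbers paired the arrays of that comparison, the value with the replicate block was -1.02 ± 0.294 (adjusted p = 0.0328). With the same block IFI6 was lower in WT cells (-0.55 ± 0.17, adjusted p = 0.0385), where it was not called without it (adjusted p = 0.0738, limma).

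Untreated IRE1-DN cells differed from EV in 16 of the 40 genes, in both directions. IFITM3 read 10.07 and 9.63 against 8.03, 8.33 and 8.65 in EV, a log2 fold change of 1.51 ± 0.161 (adjusted p = 7.55e-09, limma). IFITM2 read 10.01 and 9.50 against 8.52, 8.20 and 8.45 (1.36 ± 0.172, adjusted p = 1.76e-07, limma). The IRE1-DN arrays of both genes lay above all other untreated arrays. GBP2 read 7.94 and 7.56 (1.68 ± 0.234, adjusted p = 1.02e-06, limma). OASL was the lowest of any line at 5.22 and 5.56 against 7.89, 7.86 and 7.99 (-2.52 ± 0.231, adjusted p = 3.4e-10, limma). The others were higher for MX2 (0.72), HERC5 (0.68), OAS3 (0.62) and IRF9 (0.54) and lower for SAMD9L (-0.68) and TRIM22 (-0.67), besides the SLFN11, IFI44L and IFI44 values above. The SAMD9L call was lost without IRE1-DN replicate 3 (-0.61, adjusted p = 0.101, limma) or EV replicate 3 (-0.55, adjusted p = 0.058).

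For the brightest probe sets of GBP1, DDX60 and IRF1, calls in untreated IRE1-DN cells were lost without single arrays. GBP1 read 9.15 and 9.85 against 7.11, 8.32 and 8.55 (1.51 ± 0.414, adjusted p = 0.00556, limma) and was 1.16 (adjusted p = 0.129) without IRE1-DN replicate 3 and 1.06 (adjusted p = 0.0615) without EV replicate 1. The second GBP1 probe set, nearly as bright, gave 1.80 ± 0.195 (adjusted p = 1.61e-08, limma) and the third 2.32 ± 0.635 (adjusted p = 0.00646, limma), and for these no array was left out. DDX60 read 6.09 and 6.50 against 5.27, 4.66 and 5.75 (1.06 ± 0.392, adjusted p = 0.0412, limma). This limma call was lost without any array but EV replicate 3, at 0.78 (adjusted p = 0.194) without EV replicate 2 and 0.86 (adjusted p = 0.275) without IRE1-DN replicate 3, and was 0.51 (adjusted p = 0.539) with the ACTB difference as a covariate. IRF1 read 6.03 and 4.78 against 7.16, 6.34 and 6.41 (-1.23 ± 0.423, adjusted p = 0.028, limma) and was -0.60 (adjusted p = 0.503) without IRE1-DN replicate 3 and -0.97 (adjusted p = 0.134) without EV replicate 1, while its second probe set gave -0.91 ± 0.312 (adjusted p = 0.0309, limma). With 1 IRE1-DN array left, that array is assumed to vary like the other groups.

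Among treated cells, WT cells had 6 genes higher and 0 lower than EV, where 5.64% and 6.49% of all genes were called. S769F had 4 and 0 (all genes 4.63% and 4.4%), Q780* 5 and 2 (all genes 4.91% and 4.73%) and P336L 4 and 0 (all genes 5.88% and 6.31%). The limma counts lower at an unadjusted p under 0.05 were 1, 0 and 0 in WT, S769F and P336L, and those of the unadjusted t-test 0, 1 and 1. A414T cells had 12 higher and 1 lower (30% and 2.5%), where 10.3% and 14.5% of all genes were called, and IRE1-DN cells 5 and 7 (12.5% and 17.5%), where 11.5% and 14.5% were. The median of the 40 genes was 0.32 in A414T cells and between 0.03 and 0.23 in the other lines. The Q780* total of 7 was 2 without replicate 3 of the treated EV cells, and 4 without replicate 1 of those cells or without any 1 of the 3 treated Q780* arrays, and the A414T total of 13 was 7 without replicate 1 of the treated EV cells.

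By its brightest probe set, XAF1 was higher than EV in 5 of the 6 lines. Its second, dim probe set was called higher by limma in WT (1.05) only. That probe set gave 0.34 in S769F, 0.55 in Q780*, 0.35 in P336L, 0.66 in A414T and 0.19 in IRE1-DN. The values that follow are those of the brightest. Treated EV cells read 4.46, 5.06 and 5.20, against 5.79, 6.58 and 6.58 in WT (1.41 ± 0.314, adjusted p = 0.00196) and 6.75, 6.53 and 6.80 in Q780* (1.79 ± 0.314, adjusted p = 0.000156, limma). S769F (1.72), P336L (1.28) and A414T (1.06) were higher too, and IRE1-DN was not (-0.09, adjusted p = 0.915, limma). All treated arrays of WT, S769F, Q780* and P336L lay above those of EV, whereas A414T, at 5.13, 6.43 and 6.34, overlapped, and its limma call was lost without replicate 2 (0.83, adjusted p = 0.0855) or 3 (0.87, adjusted p = 0.0805) of A414T or replicate 1 of EV (0.84, adjusted p = 0.0849). OAS1 was called higher in WT (6.37, 7.29 and 7.16 against 5.30, 5.91 and 5.63, 1.33 ± 0.259, adjusted p = 0.000501, limma). In A414T cells EPSTI1 (1.03), HERC6 (0.95), IFI27 (0.75), GBP2 (0.72), IFI6 (0.60), IFITM3 (0.52), IRF9 (0.50) and ISG15 (0.43) were higher and MX2 (-0.76) lower. EPSTI1 was also higher in P336L cells (5.59, 6.46 and 5.69 against 4.47, 4.92 and 4.89, 1.15 ± 0.235, adjusted p = 0.000804, limma). IFI27 rose above the brightness filter on 3 arrays in all, so its value rests on few bright arrays, 3.68, 5.28 and 4.50 in treated A414T cells. It was tested only because of arrays where it was high, among them these of A414T. Its call there, its place in the A414T count and its calls with tunicamycin against untreated cells are therefore not independent of the filter. In treated IRE1-DN cells IFITM3 (1.33), IFITM2 (1.25), USP18 (1.05) and HERC5 (0.69) were higher, besides SLFN11 given above. OASL (-1.27), IFI35 (-0.92), SAMD9L (-0.79), IFI44L (-0.66), PARP9 (-0.61), IFI44 (-0.54) and TRIM22 (-0.35) were lower there. The SAMD9L value was -0.58 (adjusted p = 0.111, limma) without IRE1-DN replicate 3. USP18 was lower in Q780* cells (5.66, 5.74 and 5.76 against 6.59, 6.07 and 6.56, -0.68 ± 0.208, adjusted p = 0.0317, limma), a call lost without any array but replicate 2 of EV, down to -0.59 (adjusted p = 0.149) without replicate 1 of EV.

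Against WT cells, which overexpress the same protein unmutated, untreated A414T cells had 14 of the 40 genes called (all genes 15.3%), 4 higher and 10 lower. By limma, SLFN11 (1.22 ± 0.293, adjusted p = 0.00322), IFI44L (1.01 ± 0.208, adjusted p = 0.000667), IFI44 (0.65) and IRF9 (0.62) were higher. Lower were IFIT1 (-1.32 ± 0.361, adjusted p = 0.00995), IRF1 (-1.31 ± 0.378, adjusted p = 0.0149, limma), OAS1 (-1.18), TRIM22 (-0.94), IFI35 (-0.84), MX2 (-0.83), IFIT2 (-0.79), SAMD9L (-0.56), PARP14 (-0.56) and IFITM2 (-0.50). With signals floored at the filter level IFIT2 was -0.39 (adjusted p = 0.323, limma). The 14 genes are 35% of the 40. None passed in S769F (all genes 2.28%), Q780* (all genes 1.84%) or P336L (all genes 1.71%) with limma, where 6, 6 and 6 passed at an unadjusted p under 0.05 and 7, 4 and 5 in the unadjusted t-test of the study's methods. With the replicate block, whose numbers paired the S769F and WT arrays, SAMD9L (0.55 ± 0.148, adjusted p = 0.0364) and USP18 (0.72 ± 0.203, adjusted p = 0.0499, limma) were higher in S769F. Without replicate 2 of S769F or replicate 3 of WT, 1 gene passed in S769F, and without replicate 2 of P336L, 1 passed in P336L.

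Most interferon ligands were dim. Of 10 listed, 9 had a probe set and 3 were tested (IFNG, IFNL1 and IFNL2). By limma none of these 3 was called against EV in any line or condition, nor reached an unadjusted p under 0.05 there. IFNB1 read 3.72 to 4.24 and IFNA1 3.53 to 4.20 over the 40 arrays, with 0 arrays above the brightness filter for either. IFNL1 was above the filter on 13 arrays (3.72 to 4.78) and IFNL2, another type III interferon, on 39 (4.25 to 5.55). IFNL2 was lower with tunicamycin in EV (-0.59), Q780* (-0.58), S769F (-0.52) and WT (-0.50) cells.

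Among 14 tested genes of the receptors and the JAK-STAT route, SOCS3, an inhibitor of JAK signalling, fell with tunicamycin in every line, from -4.13 in A414T to -3.15 in IRE1-DN. SOCS3 was lower than EV in untreated IRE1-DN cells (-1.30) and in treated A414T cells (-1.34). JAK2 (0.93) and the receptor chain IFNGR2 (0.72) were higher in untreated A414T cells, and IFNGR2 in IRE1-DN cells (0.81). Among 14 nucleic acid sensors, TLR3, the endosomal sensor of double-stranded RNA, was higher than EV in untreated WT (1.03), S769F (1), Q780* (0.90) and P336L (0.88) cells and on tunicamycin by 1.31 (A414T) to 1.85 (WT) in all lines but IRE1-DN. Its mean in untreated EV cells was 4.21, under the brightness filter. AIM2, a DNA sensor, was lower in IRE1-DN cells by -2.08 untreated and -1.54 treated. MAVS, the adaptor of IFIH1, was higher there by 0.98 and 1.01.

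Of 17 tested genes of MHC class I and antigen processing, IRE1-DN cells had 11 higher and 3 lower than EV untreated (all genes 15.2% and 12.4%), and 12 and 1 treated (all genes 11.5% and 14.5%). HLA-G (1.23) and HLA-F (1.17) were among them untreated, and the transporter TAP2 (1.39) treated. The other lines had 5 to 7 higher and at most 1 lower when untreated, where 3.35% to 10.4% of all genes were higher. Tunicamycin raised 12 of the 17 in EV (all genes 18.2%) and 5 to 11 in the other lines (all genes 9.08% to 19.9%). Among 36 other inducible genes, DDX60L, a paralogue of DDX60, was higher in untreated IRE1-DN (3.06), A414T (1.83), P336L (1.76), S769F (1.45) and Q780* (1.26) cells. CD274, the ligand PD-L1, was higher in IRE1-DN (2.52), A414T (2.14), P336L (1.78), S769F (0.92), WT (0.88) and Q780* (0.76) cells. GBP3 was higher in P336L cells (1.44), against an EV mean of 4.17, under the filter. As a check on other cell types, KDR, among 5 endothelial markers tested, was higher than EV in untreated A414T (2.88) and IRE1-DN (1) cells. The endothelial array means were 5.40 to 5.43 in untreated A414T and 4.71 to 4.79 in untreated EV cells. These means include KDR, so they are not separate from its value and do not show a shift of the whole list. The part of these markers in the A414T results was not tested.

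The 18 genes read by several tested probe sets were compared with each probe set on its own, 43 probe sets of these genes among 33069 tested. In no comparison with EV or with untreated cells did 2 probe sets of 1 gene receive opposite calls. In that fit another probe set was called where the brightest one was not in 7 pairs of gene and line for untreated cells against EV, 12 for treated cells against EV and 17 for tunicamycin against untreated cells. The second GBP1 probe set was called higher than EV in untreated S769F (0.92), P336L (1.26) and A414T (0.62) cells, and in all 6 treated lines, by 0.55 (A414T) to 1.06 (IRE1-DN). The second IRF1 probe set was lower in A414T cells, untreated (-1.45, where the brightest gave -0.92, adjusted p = 0.0996, limma) and treated (-0.99). The second PARP9 probe set was lower in untreated S769F (-1.01) and IRE1-DN (-1.21) cells, and the second IFIT5 probe set higher in untreated IRE1-DN cells (0.82). In treated cells another probe set of OAS2 was higher in A414T (0.87), of GBP2 in WT (0.88) and of SLFN5 in Q780* (0.56) and IRE1-DN (1.44), and one of IFITM1 lower in WT (-0.43). The counts for the 40 genes given above rest on the brightest probe set of each.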

How the data were processed

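Total RNA (6 µg per sample, per the labels) from the 40 samples was hybridised to human expression microarrays. The deposited values are log2 RMA signals made by the authors, with background correction, normalization and summarisation per probe set. Neither the labels nor the methods name the version of the RMA software. RMA equalises the distribution of the arrays, so a change shared by most genes cannot be seen, and the number of arrays limits the precision. The table held 54715 probe sets, of which 40914 carried 1 gene symbol, 864 several, 12835 none and 102 were controls. Those with 1 symbol were used.

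Each gene was represented by the probe set with the highest mean, and a gene was tested if 2 or more arrays reached the 40th percentile of signal (4.273). All 40 arrays entered 1 model of group means in limma 3.58.1 (R 4.3.3), with 29 contrasts and Benjamini-Hochberg adjustment over 17220 genes, and adjusted p under 0.05 was called. Tables and figures were made in Python 3.11.15 with pandas 2.3.3 and matplotlib 3.10.9. The procedure was tested on simulated data. The members and lists were chosen with earlier results of these data known. Genes named with values on each array were members called with at least a 2-fold difference in some comparison, and from each other list at most 3 called genes with the largest difference against EV in a line. Values for other list genes, for members below 2-fold and for the same genes in further lines were added after they were seen.

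Replicate numbers were checked for pairing. In 7 of 23 comparisons of lines or treatments every pair of same-numbered arrays deviated together (correlation over 0.1), the correlations running from -0.386 to 0.627 over all. These were WT, S769F and Q780* against EV untreated, WT and Q780* against EV treated, and S769F and Q780* against WT untreated. Alternatives were no brightness filter, the mean of all probe sets, the arrays of each comparison alone, a replicate block, median centring, repeated quantile normalization, a 2-fold minimum, the t-test of the study's methods, an RNA integrity covariate (ACTB) leaving out each array and, added after the data were seen, signals floored at the filter level. The probe sets' gene names come from the platform annotation, updated through gene identifiers.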

Additional observations from a re-analysis of the deposited data

Results flagged for a closer look

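Of the genes described, 13 responses to tunicamycin differed from that of EV cells by the interaction test of limma at adjusted p under 0.05. In A414T cells the difference in log2 change was 3.31 for IFIT1, 1.45 for IFI6, 1.36 for EPSTI1, 0.88 for SAMD9L, 0.85 for PARP9, 0.79 for IFITM2, 0.68 for IFITM3, 0.63 for TRIM22 and -0.65 for HERC5. The IFITM3 value was 0.53 (adjusted p = 0.126, limma) without replicate 3 of untreated EV cells, the IFITM2 value 0.61 (adjusted p = 0.0859) and the SAMD9L value 0.71 (adjusted p = 0.107) without replicate 2 of treated A414T cells. The IFIT1 value is measured from untreated A414T signals near background and was 3.16 with signals floored at the brightness filter. In Q780* cells it was 0.89 for ISG20 and -0.83 for IFI44, and in IRE1-DN cells 1.26 for OASL and -1.29 for GBP2. Untreated ISG20 signals of Q780* and EV cells lay below that filter, and with floored signals the value was 0.94. ISG20 was tested only because of treated arrays, so this value is not independent of the filter.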

How the results depend on the processing

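Single calls were followed through the alternatives for 16 genes against EV and in interactions, and for 10 genes with tunicamycin, 118 calls in all. None of these calls changed direction. Calls of other genes and calls against WT were not followed in this way. Counts of the 40 genes called depended on the test, and each is given here with the value of the main test in brackets. The cause was not tested, except that a 2-fold minimum removes calls by construction. For untreated cells against EV, the arrays compared alone gave 2, 1, 0 and 2 in WT [5], S769F [3], Q780* [3] and P336L [4], the mean of probe sets 5 in S769F, and a 2-fold minimum 3 in WT, 1 in S769F, 2 in P336L, 4 in A414T [14] and 9 in IRE1-DN [16]. The t-test of the study's methods gave 11, 7, 6 and 12 in WT, S769F, Q780* and P336L without adjustment, and 1, 0, 0, 1 and 2 in WT, S769F, Q780*, P336L and IRE1-DN after Benjamini-Hochberg adjustment. For treated cells against EV, the arrays compared alone gave 2 in P336L [4] and 6 in A414T [13]. A 2-fold minimum gave 3 in WT [6], 2 in S769F [4], 1 in Q780* [7], 5 in A414T and 5 in IRE1-DN [12]. The t-test gave 11 in S769F and 7 in P336L unadjusted, and 1, 0, 0, 1, 4 and 3 adjusted in the 6 lines. For tunicamycin against untreated cells a 2-fold minimum gave 8 in EV [20], 9 in WT [25], 13 in S769F [24], 11 in Q780* [26], 14 in P336L [28] and 6 in IRE1-DN [14]. The adjusted t-test gave 11 in EV, 12 in WT, 13 in P336L, 15 in A414T [29] and 0 in IRE1-DN. For interactions the arrays compared alone gave 1 in Q780* [2] and 2 in A414T [9], a 2-fold minimum 0 and 3, and the ACTB covariate 1 in IRE1-DN [2]. Against WT, the unadjusted t-test gave 7, 4 and 5 in S769F, Q780* and P336L [0 each], the repeated quantile normalization 1 in S769F, and in A414T [14] a 2-fold minimum gave 5 and the adjusted t-test 7.

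With the replicate number as a block over all arrays, 2 genes were called in S769F and 1 in P336L against WT. With the block and the arrays compared alone, counts were 1 in P336L and 8 in IRE1-DN untreated against EV, 8 in A414T treated against EV, 12 in P336L and 9 in IRE1-DN with tunicamycin, 1 in Q780* and 2 in A414T for interactions, and 7 in A414T against WT. In the 7 comparisons whose arrays the numbers paired, the block over all arrays changed the calls of IFI6, IFIT1, SAMD9L and USP18 given above and no other.

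Leaving out 1 array at a time gave 4 to 6 (WT), 2 to 5 (S769F), 3 to 3 (Q780*), 2 to 4 (P336L), 12 to 13 (A414T) and 11 to 15 (IRE1-DN) for untreated cells against EV, and 4 to 6, 3 to 5, 2 to 6, 3 to 5, 7 to 17 and 8 to 12 for treated cells. For tunicamycin it gave 17 to 19 (EV), 20 to 27, 21 to 23, 23 to 26, 21 to 26, 26 to 30 and 9 to 15, for interactions 0 to 0, 0 to 0, 0 to 2, 0 to 0, 5 to 15 and 0 to 2, and against WT 0 to 1 (S769F), 0 to 0 (Q780*), 0 to 1 (P336L) and 10 to 13 (A414T). With 1 IRE1-DN array left, that array is assumed to vary like the other groups. Setting signals below the filter to its level, an alternative chosen after seeing the data, kept every count within 1.5 times. IFIT1 in untreated WT cells (-1.12, adjusted p = 0.0527, limma) and XAF1 in EV cells with tunicamycin lost the call. With tunicamycin GBP2 in EV cells (0.54, adjusted p = 0.0505, limma) and IFI27 in P336L cells (0.56, floored 0) lost it too. IFIT2 in untreated A414T cells lost it against both EV and WT. Among 2007 values of the 118 calls followed, 1771 kept their direction and call and 236 lost the call. Scaling moved the median of all genes by at most 0.034 log2 units.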
